A study of Mus musculus with 16 samples.

Results

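Transcripts of 10 genes that mark T cells and regulatory T cells were followed in inflamed mouse ear skin. The genes were chosen by symbol from the deposited table, as rows named Cd3d, Cd3e, Cd3g, Cd4, Cd8a, Trac, Foxp3, Il2ra, Ctla4 and Icos, and all 10 were found among its 45777 genes. The libraries were made from polyA RNA of ear skin of wild-type C57BL/6 mice and were compared between 3 samples from mice treated with antibody to the cytokine oncostatin M, here called anti-OSM, and 3 from mice treated with antibody to the neutrophil surface protein Ly6G, here called anti-Ly6G. Every one of the 6 had MC903 on both ears, 20 µL at 50 µM daily for 10 days. Known also as calcipotriol, this vitamin D analogue brings on inflammation resembling atopic dermatitis. Doses were 20 µg of anti-OSM per mouse, injected intradermally on alternate days, and 200 µg of anti-Ly6G per mouse, injected intraperitoneally 2 days ahead of MC903 and again 1 and 4 days later. The groups thus differ in antibody, route and timing at once, the labels name no isotype control for these groups, and the protocol of these 6 libraries does not mention the ovalbumin named in that of the control and MC903 libraries. Libraries of 5 control and 5 MC903 ears are described in the labels and were not analysed here, so neither antibody group was compared with MC903 alone. Age and sex are not stated.

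A T cell recognises antigen through a receptor whose variable chains, alpha and beta in most T cells, cannot signal alone. The chains travel to the surface with the CD3 delta, epsilon and gamma proteins and the zeta chain, whose tails are phosphorylated by the kinase Lck when CD4 or CD8 binds the same MHC molecule as the receptor. Regulatory T cells are CD4 cells that carry the transcription factor Foxp3, the high-affinity interleukin 2 receptor chain CD25 and the inhibitory receptor CTLA-4. They are abundant in skin, where they restrain inflammation and take part in hair growth and wound repair.

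The genes lie in a few clusters, and the positions below are those of RefSeq on GRCm38, the assembly mm10 names. Cd3g, Cd3d and Cd3e are neighbours on chromosome 9 (Cd3g 44969572 to 44980431, minus strand; Cd3d 44981769 to 44987052, plus strand; Cd3e 44998735 to 45009663, minus strand). Cd3g and Cd3d are read away from each other across a gap of 1337 bases. Ctla4 (60909025 to 60915832) and Icos (60960773 to 61000322) lie 44.9 kb apart on chromosome 1, downstream of their relative Cd28. Cd4 is on chromosome 6 (124864693 to 124888247), 16.1 kb from its relative Lag3, and Cd8a is on the same chromosome (71373427 to 71379171), 35.9 kb from Cd8b1. Il2ra is on chromosome 2 (11642792 to 11693194), Trac on chromosome 14 (54220521 to 54224198) and Foxp3 on the X chromosome (7579676 to 7595243). The span of Foxp3 overlaps the protein-coding gene Ccdc22 on the opposite strand, and that of Cd3e an antisense gene. On their own strand, Foxp3 (Flicr), Cd3e (Gm48720), Il2ra (Gm37881) and Icos (Gm37039) also overlap other annotated genes. The sources used here do not say whether counting used strand, and strand would not part overlaps on the same strand. Reads of all those overlaps therefore cannot be assigned with certainty.

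RefSeq promoter sequences (GRCm38.p6) matched 7 of the 10 genes, in 8 windows since Foxp3 has 2 starts. Not matched were Cd4, Trac and Icos. The 250 bases before the start of each CD3 gene and of Il2ra as listed there, are shown because the CD3 genes form 1 cluster and encode parts of 1 complex, and because Cd3d, Cd3e and Il2ra hold the 3 matches to a core of the Ets factor motif. Capitals mark that core, ACTTCC on either strand, and each sequence runs 5′ to 3′ on the gene's own strand.
Cd3d, chr9:44981536-44981785, plus strand: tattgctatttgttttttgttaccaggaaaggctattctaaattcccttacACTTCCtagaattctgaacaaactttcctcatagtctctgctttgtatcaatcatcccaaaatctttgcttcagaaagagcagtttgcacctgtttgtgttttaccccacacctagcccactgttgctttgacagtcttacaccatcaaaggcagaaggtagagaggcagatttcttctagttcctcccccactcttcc
Cd3g, chr9:44980432-44980681, minus strand: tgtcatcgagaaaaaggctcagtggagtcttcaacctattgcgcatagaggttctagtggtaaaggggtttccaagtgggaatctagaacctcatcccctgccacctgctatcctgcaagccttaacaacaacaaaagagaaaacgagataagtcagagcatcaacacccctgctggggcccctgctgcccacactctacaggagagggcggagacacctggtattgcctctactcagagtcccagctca
Cd3e, chr9:45009612-45009861, minus strand: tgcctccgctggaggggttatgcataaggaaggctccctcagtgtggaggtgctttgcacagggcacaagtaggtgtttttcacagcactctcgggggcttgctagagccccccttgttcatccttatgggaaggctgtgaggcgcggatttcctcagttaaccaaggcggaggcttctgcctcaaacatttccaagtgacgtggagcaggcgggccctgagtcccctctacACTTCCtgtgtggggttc
Il2ra, chr2:11642542-11642791, plus strand: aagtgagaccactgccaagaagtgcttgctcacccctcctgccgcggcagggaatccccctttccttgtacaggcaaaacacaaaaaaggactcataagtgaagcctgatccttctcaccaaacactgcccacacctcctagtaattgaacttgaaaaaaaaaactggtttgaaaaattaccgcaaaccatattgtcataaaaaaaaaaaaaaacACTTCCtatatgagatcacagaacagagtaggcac
The Ets core was in 3 of the 8 windows and in 19.7% of the 32851 windows of all genes. Searched the same way, on both strands, TTCNNNGAA, a STAT core, was in 2 of 8 (Cd3d and Foxp3; 7.02% of all). GGAAAA, an NFAT core, was in 2 of 8 (Ctla4 and Foxp3; 20.4% of all), and CANNTG, the E-box, in 7 of 8 (66.2% of all). TATAAA was in 1 of 8 (Foxp3; 12.4% of all) and TGTGGT, a Runx core, in 0 of 8 (14.0% of all). The Ets and STAT matches of Cd3d overlap, as do the STAT and NFAT matches of Foxp3. By the gene positions above, 17 bases of the Cd3d window and 52 of the Cd3e window, its Ets core included, lie inside the gene's span, as do all 250 of the window of the second Foxp3 start. A match is a description of the letters and not a binding site.

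The 6 libraries held 52163179 to 64122588 counts, and the 10 genes together 4047 to 8113 of them. Of 19915 genes tested with edgeR's quasi-likelihood test, 5.81% were higher and 6.27% lower with anti-OSM at a Benjamini-Hochberg adjusted p under 0.05. Along the first principal component of all genes (43.6% of the variance), anti-Ly6G replicate 3 (-14.9) lay between the anti-OSM libraries (26.6 to 34.7) and anti-Ly6G replicates 1 (-38.6) and 2 (-39.3). Results below are therefore also given without that library. It lay nearest the anti-OSM libraries and was the highest of its group for each of the 10 genes. Leaving it out thus raises their fold changes, and calls gained that way are no added support. Of all tested genes, 7.62% were higher without it, against 1.18% to 2.86% without each other library. In CPM, counts scaled by library size with TMM factors, Osm was at 10.8 ± 4.56 (SD, n = 3) in the anti-OSM group against 10.97 ± 2.22 (log2 fold change -0.02, adjusted p = 0.973). Ly6g had 3, 0 and 0 counts against 3, 3 and 3. Transcripts of the targets do not measure neutralisation or depletion of the proteins.

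All 10 genes were detected in every library, and their levels per transcript length ranged widely. In TPM, a scale that corrects for transcript length, Cd3g was highest, at 28.8 ± 4.65 (SD, n = 6 libraries), followed by Ctla4 at 15.2 ± 4.41 and Cd4 at 12.5 ± 5.62. Cd3g exceeded Ctla4, and Ctla4 exceeded Cd4, in 6 of 6 libraries. A middle group held Trac at 11.2 ± 2.56, Icos at 10.7 ± 3.23 and Cd3e at 10.5 ± 1.54, and these neighbours changed places between libraries, with Trac above Icos in 4 of 6 and Icos above Cd3e in 3 of 6. Cd3d followed at 8.25 ± 2.35, Il2ra at 7.67 ± 1.55 and Foxp3 at 6.33 ± 1.46, with Il2ra above Foxp3 in 6 of 6. Cd8a was the lowest by far, at 0.596 ± 0.286 TPM and 18 to 103 counts per library.

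**Figure D1:**
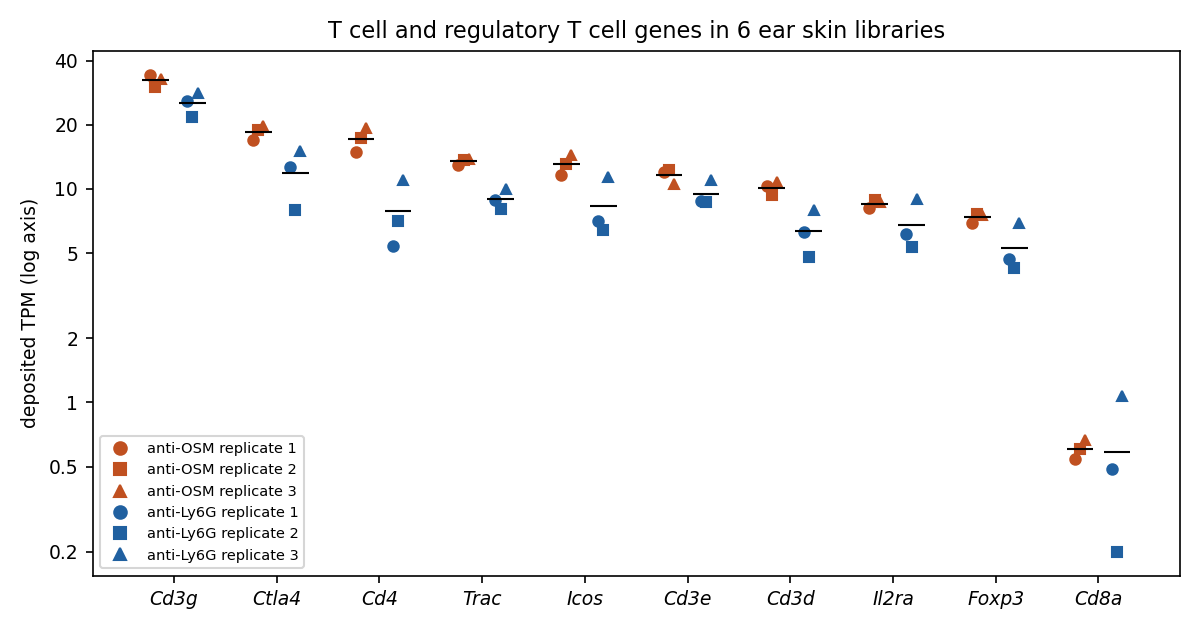
Deposited TPM (log axis) of each gene, ordered by its mean over the 6 libraries, in the 3 anti-OSM (orange) and 3 anti-Ly6G (blue) libraries; black lines are group means and symbols the replicate number. Cd8a lies under 1.1 TPM in every library while the other genes lie above 4, and among the anti-Ly6G libraries replicate 3 is the highest for each gene.

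With anti-OSM, 2 of the 10 genes were higher than with anti-Ly6G and 0 were lower: Cd4, the co-receptor of helper and regulatory T cells, by 2.24-fold, and Trac, the constant region of the receptor's alpha chain, by 1.53-fold. Against the 2 of 10 stand the 5.81% of all tested genes that were called higher. The 8 others did not pass, although the fold changes of all 10 were above 0, as were those of 51.1% of tested genes, and their median log2 fold change was 0.55, against 0.01 for all tested genes. In CPM, every anti-OSM library lay above every anti-Ly6G library in 7 of the 10, as it did in 17.7% of tested genes. At an unadjusted p under 0.05, 8 of the 10 were higher and 0 lower, against 14.7% of tested genes higher. DESeq2 called 7 of the 10 higher and 0 lower, against 8.31% of genes higher. In bulk skin RNA, fewer T cells and less of a transcript per T cell cannot be told apart.

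For the antigen receptor, Trac was at 12.95, 13.7 and 13.8 TPM in the anti-OSM libraries and at 8.91, 8.04 and 9.95 in the anti-Ly6G libraries. The groups did not overlap and each was narrow. The log2 fold change on counts was 0.61 (SE 0.13, 95% interval 0.32 to 0.90, adjusted p = 0.0213). Trac lost its call without any 1 library except anti-Ly6G replicate 3 (adjusted p 0.0554 to 0.0833), while its fold change stayed between 0.52 and 0.68.

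The CD3 genes had log2 fold changes of 0.32 to 0.60 and did not pass. Cd3d, for the delta chain, was at 10.3, 9.36 and 10.8 TPM with anti-OSM, against 6.28, 4.81 and 7.93 with anti-Ly6G. Its libraries did not overlap between groups, and its log2 fold change was 0.60 (SE 0.19, adjusted p = 0.0823). Cd3g, for the gamma chain, was at 34.4, 30.2 and 32.7 TPM against 25.9, 21.7 and 28.2, again without overlap, with 0.38 (SE 0.12, adjusted p = 0.0719). Cd3e, for the epsilon chain, was at 11.98, 12.3 and 10.5 TPM against 8.79, 8.68 and 10.98. Here anti-Ly6G replicate 3 lay above anti-OSM replicate 3 in TPM, and the log2 fold change was 0.32 (SE 0.13, adjusted p = 0.138). Without anti-Ly6G replicate 3, Cd3d (0.78, adjusted p = 0.0280) and Cd3g (0.46, adjusted p = 0.0489) passed and Cd3e (0.42, adjusted p = 0.0577) did not. Without each other library no CD3 gene passed (adjusted p 0.116 to 0.315).

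The co-receptors held the highest and the lowest fold change of the 10 genes. Cd4 was at 15.0, 17.3 and 19.4 TPM with anti-OSM, against 5.42, 7.07 and 11.1 with anti-Ly6G. Every anti-OSM library was above every anti-Ly6G library, and the anti-Ly6G libraries themselves spread over a wide range with replicate 3 on top. The log2 fold change was 1.16 (SE 0.24, 95% interval 0.60 to 1.72, adjusted p = 0.0252). Like Trac, Cd4 kept its call without anti-Ly6G replicate 3 (1.48, adjusted p = 0.00155) and lost it without any other 1 library (adjusted p 0.0538 to 0.0947), where the fold change was 0.97 to 1.26.

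Cd8a, the co-receptor of cytotoxic T cells and also a marker of some dendritic cells, had 44, 55 and 59 counts in the anti-OSM libraries against 47, 18 and 103. The anti-Ly6G libraries enclosed the anti-OSM libraries from both sides. The log2 fold change was 0.06 with a 95% interval of -1.09 to 1.20 (adjusted p = 0.954), so a difference of 1 on the log2 scale in either direction lay within the interval. Its sign turned when anti-OSM replicate 3 (-0.03), anti-Ly6G replicate 1 (-0.05) or anti-Ly6G replicate 2 (-0.35) was left out. Its partner Cd8b1, which pairs with Cd8a on T cells, had 20, 32 and 27 counts against 13, 9 and 50 (log2 fold change 0.27, adjusted p = 0.786), with anti-Ly6G replicate 3 again the highest.

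The regulatory T cell genes lay above 4 TPM in every library. Foxp3, the factor that defines the lineage, was at 6.93, 7.61 and 7.53 TPM with anti-OSM, against 4.71, 4.26 and 6.93 with anti-Ly6G. On the CPM scale the groups did not overlap, but anti-OSM replicate 1 (12.4 CPM) and anti-Ly6G replicate 3 (12.3 CPM) were nearly equal. In TPM they overlapped, with anti-OSM replicate 1 (6.928) just below anti-Ly6G replicate 3 (6.933). The log2 fold change was 0.50 (SE 0.17, 95% interval 0.10 to 0.90, adjusted p = 0.103). Without anti-Ly6G replicate 3 it was 0.72 and passed (adjusted p = 0.00795), and without each other library it did not pass (adjusted p 0.168 to 0.254).

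Il2ra, which encodes CD25 and lets regulatory T cells capture interleukin 2, was at 8.13, 8.86 and 8.65 TPM against 6.12, 5.34 and 8.95. Anti-Ly6G replicate 3 was the highest of all 6 libraries in TPM, and the log2 fold change was 0.35 (SE 0.18, adjusted p = 0.234). Without that library it was 0.59 (adjusted p = 0.0158), without anti-Ly6G replicate 2 it was 0.19 (adjusted p = 0.464), and without each of the other 4 it did not pass (adjusted p 0.303 to 0.435). Ctla4, which strips co-stimulatory ligands from antigen-presenting cells, was at 16.9, 18.9 and 19.8 TPM against 12.6, 7.94 and 15.0. The groups did not overlap, anti-Ly6G replicate 2 was the lowest, and the log2 fold change was 0.67 (SE 0.22, adjusted p = 0.0946). Without anti-Ly6G replicate 3 it was 0.86 (adjusted p = 0.0356), and without replicate 2 it was 0.43 (adjusted p = 0.0731). Ctla4 did not pass without any library other than anti-Ly6G replicate 3 (adjusted p 0.0731 to 0.238).

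Icos, a co-stimulatory receptor of activated and regulatory T cells that group 2 innate lymphoid cells also carry, was at 11.6, 13.1 and 14.5 TPM with anti-OSM, against 7.12, 6.41 and 11.4 with anti-Ly6G. The groups did not overlap, though the gap between anti-OSM replicate 1 and anti-Ly6G replicate 3 was small. The log2 fold change was 0.68 (SE 0.19, 95% interval 0.23 to 1.13, adjusted p = 0.0610). It passed without anti-Ly6G replicate 3 (0.94, adjusted p = 0.00325) and in limma-voom (0.71, adjusted p = 0.0468). Without each other library it did not pass (adjusted p 0.104 to 0.181).

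**Figure D2:**
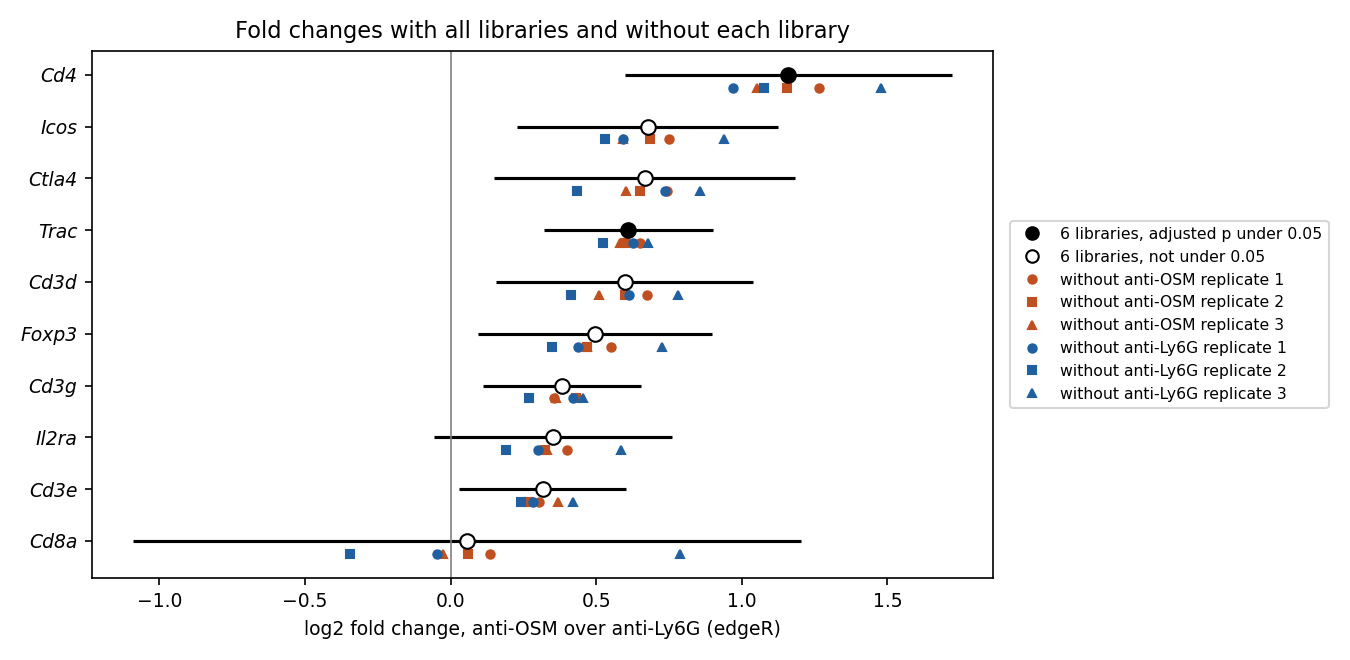
Log2 fold change of anti-OSM over anti-Ly6G for each gene; circles and bars are the edgeR estimate and 95% interval with 6 libraries (filled where the adjusted p was under 0.05), and the small symbols below are the estimates without each library. The estimate without anti-Ly6G replicate 3 is the highest for each gene, and that without anti-Ly6G replicate 2 is the lowest for every gene but Cd4.

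Read against the T cell receptor complex of the same library, Cd4 and Trac did not overlap between the groups, and the other genes did. Whether the genes differ from each other was not tested. No share over all genes was computed for such ratios. In CPM, 35.0% of tested genes did not overlap between the groups in either direction. The log2 ratio of Cd4 counts to the geometric mean of the Cd3d, Cd3e and Cd3g counts was 1.27, 1.49 and 1.64 with anti-OSM, against 0.25, 0.85 and 1.011 with anti-Ly6G. The mean difference of 0.76 is a 1.69-fold higher Cd4 count per CD3 count, with no overlap between the groups. Gamma delta T cells also carry the CD3 chains, so none of these ratios is a value per alpha beta or per CD4 T cell. The ratio of Trac to the CD3 genes also did not overlap, with a smaller difference of 0.17. For Foxp3 the difference was 0.08 (0.53 ± 0.07 against 0.45 ± 0.15, SD, n = 3) and for Il2ra -0.06 (0.98 ± 0.07 against 1.04 ± 0.16), each within the spread of the libraries. Ctla4 (0.27) and Icos (0.26) overlapped between groups, as did Cd8a (-0.09). An exact 2-sided permutation test of 3 against 3 cannot go below p = 0.1, the value that Cd4 and Trac reached (adjusted p = 0.425 over 17 ratios).

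Relative to Ptprc, which encodes CD45 of all leukocytes, Cd3e and Cd3g did not overlap between the groups and the other 8 genes did. Here too no share over all genes was computed, and in CPM 35.0% of tested genes did not overlap in either direction. Ptprc itself was higher with anti-OSM, at 154 ± 12.3 CPM against 99.9 ± 17.8 (log2 fold change 0.63, adjusted p = 0.0198). Leaving out anti-OSM replicate 1, anti-OSM replicate 3 or anti-Ly6G replicate 1 ended that call (adjusted p 0.0649 to 0.0742). The log2 ratios of Cd3e and Cd3g to Ptprc were lower with anti-OSM, by a difference of -0.32 and -0.25 and with no overlap. Each had an exact permutation p = 0.1, the smallest possible (adjusted p = 0.425 over 17 ratios). Those of Cd3d (-0.01), Trac (-0.02), Foxp3 (-0.11), Ctla4 (0.08) and Icos (0.07) differed by less than the spread between libraries, and Il2ra (-0.25) overlapped between groups. Cd4 over Ptprc differed by 0.57, with anti-OSM replicate 1 (-2.93) below anti-Ly6G replicate 3 (-2.89).

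**Figure D3:**
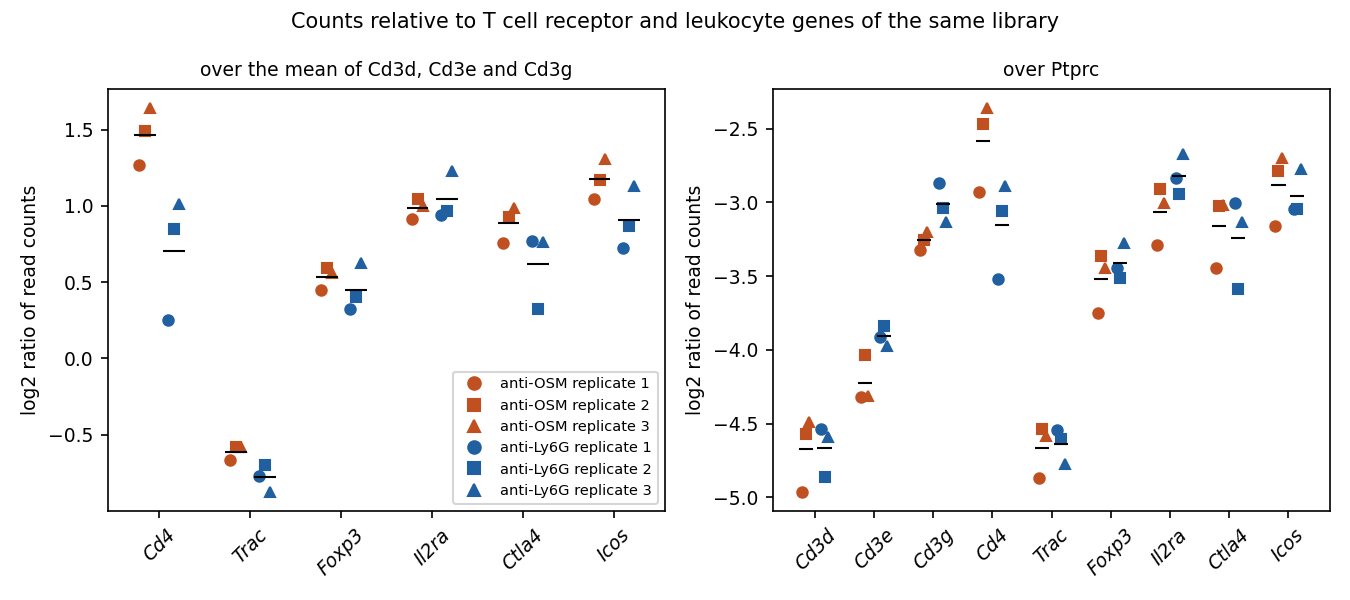
Log2 ratio of each gene's read count to the geometric mean of the Cd3d, Cd3e and Cd3g counts (left) and to the Ptprc count (right) of the same library, with group means as black lines; Cd8a is left out for its low counts. Cd4 parts the groups on the left, while Foxp3 and Il2ra overlap in both panels.

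Other genes of the receptor and its signalling chain mostly shared the direction of the CD3 genes without passing. The median log2 fold change of 23 such genes was 0.41. At an unadjusted p under 0.05, 13 were higher, against 14.7% of all tested genes, and 0 lower. DESeq2 called 7 higher, against 8.31% of all tested genes, and 0 lower. The same shares apply to the lists that follow. In edgeR 4 of the 23 were higher, against 5.81% of all tested genes, 0 were lower and 19 did not pass. The 4 were Rasgrp1, an activator of Ras (0.49, adjusted p = 0.0163), Trat1, an adaptor of the receptor complex (0.50, adjusted p = 0.0274), Themis, a regulator of receptor signals (1.00, adjusted p = 0.0337), and the kinase gene Fyn (0.31, adjusted p = 0.0353). The call of Rasgrp1 ended when anti-OSM replicate 1 or 3 was left out (0.0538 to 0.0688), and those of the other 3 without any 1 library except anti-Ly6G replicate 3 (0.0549 to 0.118). Without that library 11 of the 23 were higher, against 7.62% of all tested genes. The zeta chain gene Cd247 (0.37, adjusted p = 0.0969), Lck (0.41, adjusted p = 0.0928) and Zap70 (0.27, adjusted p = 0.178) did not pass. Of the beta chain constant regions, Trbc1 had 0.30 (adjusted p = 0.132) and Trbc2 -0.04 (adjusted p = 0.798). These 2 are near-identical copies that can share reads, so how the counts split between them is uncertain, while their sum does not depend on the split. Trbc2, the more abundant, was at 13.5, 13.9 and 14.4 CPM with anti-OSM against 15.2, 13.2 and 14.6. Trbc1 was at 6.27, 6.14 and 7.20 CPM against 5.43, 5.57 and 4.95. The beta constant regions thus did not share the call of Trac, and their sum was not tested.

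Among co-stimulatory and inhibitory receptors and their ligands, the median log2 fold change was 0.28 (unadjusted 7 higher and 0 lower, DESeq2 6 and 0). Of 22 tested genes 4 were higher, against 5.81% of all tested genes, and 0 lower. The genes were Btla (0.87, adjusted p = 0.0257), Pdcd1lg2, a ligand of PD-1 (1.12, adjusted p = 0.0260), Cd96 (0.60, adjusted p = 0.0298) and Tigit (0.64, adjusted p = 0.0339), of which Btla and Tigit encode inhibitory receptors. Without anti-Ly6G replicate 3, 8 were higher. Without each other library 0 or 1 was, Btla alone passing without anti-Ly6G replicate 2, and the adjusted p of lost calls was 0.0539 to 0.124. Cd28, whose protein shares ligands with CTLA-4, had 0.37 (adjusted p = 0.255). The ligand genes Cd80 (0.02, adjusted p = 0.932) and Cd86 (0.32, adjusted p = 0.0540), and Icosl, the ligand gene of Icos (0.30, adjusted p = 0.0784), did not pass.

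Interleukin 2 itself was hardly detected, with 8, 10 and 3 counts of Il2 in the anti-OSM libraries against 6, 7 and 19, too few to be tested. The median of that cytokine family was 0.32 (unadjusted 4 higher and 0 lower, DESeq2 4 and 0). Of its 11 tested genes 2 were higher, against 5.81% of all tested genes, and 0 lower. These were Il15 (0.69, adjusted p = 0.0279) and Il7 (0.59, adjusted p = 0.0461), which sustain memory and naive T cells. Each lost its call without any 1 library except anti-Ly6G replicate 3 (0.0538 to 0.138), without which 6 were higher. The receptor subunit genes Il2rb (0.26, adjusted p = 0.214), Il2rg (0.43, adjusted p = 0.126) and Il7r (0.32, adjusted p = 0.174) did not pass.

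Of 21 other tested genes of the regulatory programme 7 were higher, against 5.81% of all tested genes, and 0 lower. Their median was 0.37 (unadjusted 12 higher and 3 lower, DESeq2 9 and 2). The 3 lower at an unadjusted p under 0.05, named after their values were seen, did not pass after adjustment. They were Lrrc32 (-0.32, adjusted p = 0.0765, no overlap between the groups), Nt5e (-0.45, adjusted p = 0.110) and Ikzf4 (-0.33, adjusted p = 0.141). Ebi3, a subunit of interleukins 27 and 35 that antigen-presenting cells also make, was higher by 1.02 on the log2 scale (adjusted p = 0.0107) and passed without each of the 6 libraries (adjusted p up to 0.0428). Ikzf2, which encodes the factor Helios of thymic regulatory T cells, was at 42.2 ± 2.82 CPM against 28.2 ± 3.81 (0.58, adjusted p = 0.0136). Leaving out anti-OSM replicate 3 or anti-Ly6G replicate 1 ended the call (adjusted p up to 0.0578). Tgfb1 (0.37, adjusted p = 0.0265) and Tnfrsf1b, a TNF receptor gene (0.51, adjusted p = 0.0309), lost theirs without any 1 library except anti-Ly6G replicate 3 (0.0618 to 0.113). Without that library 8 of the list were higher and 2 lower (Nt5e, adjusted p = 0.0174, and Ikzf4, adjusted p = 0.037). Without each other library 1 to 3 were higher. Of other receptor genes that regulatory T cells carry, Tnfrsf4, Tnfrsf18 and Ccr8 did not pass: Tnfrsf4 had 0.30 (adjusted p = 0.152), Tnfrsf18 -0.04 (adjusted p = 0.832) and Ccr8 0.46 (adjusted p = 0.0862). Il10, a suppressive cytokine gene, had -0.39 (95% interval -1.07 to 0.29, adjusted p = 0.429).

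Helper subset genes had a median of 0.31 (unadjusted 7 higher and 1 lower, DESeq2 5 and 0). Of 15 tested 2 were higher, against 5.81% of all tested genes, and 0 lower. They were Irf4 (0.50, adjusted p = 0.0151) and Maf (0.32, adjusted p = 0.0364), transcription factor genes that are active in several T cell states and in myeloid cells. Irf4 did not pass when anti-OSM replicate 1 or 3 was left out (0.0579 to 0.0637), nor Maf without any 1 library except anti-Ly6G replicate 3 (0.0769 to 0.135), without which 5 of the list were higher. Of the lineage factor genes, these did not pass: Gata3 of type 2 cells had 0.31 (adjusted p = 0.0867) and Tbx21 of type 1 cells -0.84 (adjusted p = 0.158), the last at 12 to 36 counts. Gata3 is also transcribed by other skin cells.

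Of 24 homing receptors and skin chemokines 5 were higher, against 5.81% of all tested genes, and 0 lower. Their median was 0.44 (unadjusted 12 higher and 0 lower, DESeq2 7 and 0). Ccl22, a chemokine that draws CCR4-bearing T cells, was higher by 0.91 (adjusted p = 0.0101) and passed without each of the 6 libraries (adjusted p up to 0.0430). Its receptor gene Ccr4 had 0.38 (95% interval -0.02 to 0.78, adjusted p = 0.194). Ccl21a (0.49, adjusted p = 0.0161), Selplg, the ligand gene of P-selectin (0.76, adjusted p = 0.0258), and Ccl19 (0.73, adjusted p = 0.0458) also passed. Each of these 3 lost its call without at least 4 of the 6 libraries (0.0511 to 0.142). Ccl21a belongs to a family of near-identical copies, so its count is uncertain. Without anti-Ly6G replicate 3, 9 of the list were higher, and 1 or 2 without each other library.

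Markers of other leukocytes that can carry some of the 10 transcripts moved in the same direction, and their part in the T cell results was not tested. Over all tested genes, 5.81% were higher in edgeR, 14.7% unadjusted and 8.31% in DESeq2. Genes of all leukocytes had 11 of 16 higher (unadjusted 15; DESeq2 15; median 0.54), and their summed level was 1599 to 1790 CPM with anti-OSM, against 1008 to 1397 with anti-Ly6G. Macrophage and monocyte genes, whose cells can transcribe Cd4, had 5 of 16 higher (unadjusted 11; DESeq2 11; median 0.61; Ccr2 0.86 and Csf1r 0.91), summing to 3502 to 4255 CPM against 2154 to 3163. Csf1r did not pass without anti-Ly6G replicate 2 (adjusted p = 0.0515). Dendritic and Langerhans genes had 10 of 16 higher and 1 lower (unadjusted 12 and 1; DESeq2 11 and 1; median 0.51; Mgl2 0.83 and Cd209a 1.11), summing to 2186 to 2833 CPM against 1532 to 1921. The mast cell and eosinophil list had 8 of 14 higher (unadjusted 13; DESeq2 11; median 0.82; Mcpt4 0.65 and Cma1 0.79). In each of these lists anti-Ly6G replicate 3 had the highest sum of its group, as it did for the 10 T cell genes (110 CPM, against 82.4 and 68.8 in replicates 1 and 2 and 123 to 142 with anti-OSM). Without that library 16 leukocyte, 12 macrophage, 11 dendritic and 10 mast cell or eosinophil genes were higher. Without each other library the ranges were 0 to 5, 1 to 4, 3 to 6 and 6 to 9.

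Lists of other lymphocytes held calls in some cases, beside 5.81% of all tested genes called higher and 6.27% called lower. Cytotoxic and natural killer genes had 0 of 15 called in edgeR (unadjusted 5 higher and 0 lower; DESeq2 1 higher; 3 higher without anti-Ly6G replicate 3), with a median of 0.47 and sums of 44.0 to 44.95 CPM with anti-OSM against 34.4, 25.1 and 42.8. Gamma delta T cell genes had 1 of 10 higher, 5830411N06Rik (0.71, adjusted p = 0.0334, lost without 5 of the 6 libraries). Their median was 0.16 (unadjusted 3 higher and 0 lower, DESeq2 1 and 0). The delta constant region Trdc had -0.04 (95% interval -0.86 to 0.78). Genes of group 2 innate lymphoid cells, several of them shared with T cells, had 1 of 12 higher and 1 lower. Their median was 0.19 (unadjusted 4 higher and 2 lower, DESeq2 2 and 2). Rora was higher (0.39, lost without 5 of the 6 libraries, adjusted p 0.0764 to 0.145). Areg was lower by 2.09 on the log2 scale and passed without each library. Which cells carried the Areg transcript was not tested. The B cell and plasma cell list had 2 of 9 higher and 0 lower (unadjusted 3 and 1; DESeq2 2 and 0; median 0.28), with 5 of 9 fold changes above 0. The 2 were Cd79b (1.52) and Ighm (1.23), each passing without every library in turn, while Ms4a1, Pax5 and Jchain were too low to be tested. Structural genes went the other way in part: 5 of 12 keratinocyte genes (Dsg3 -0.84, Itgb4 -0.58) and 9 of 12 muscle and cartilage genes (Myh4 -1.18, Atp2a1 -0.83) were lower. The other 7 keratinocyte genes did not pass, and 4 of the 12 had fold changes above 0. Their summed CPM overlapped between groups (24270 to 28917 with anti-OSM against 28801 to 35742). Without each library in turn the counts of lower genes in the 2 lists were 1 to 6 and 6 to 8. Itgb4 did not pass when anti-OSM replicate 1 or 3 was left out (0.055 to 0.0565). The part of tissue make-up in the T cell values was not tested.

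**Figure D4:**
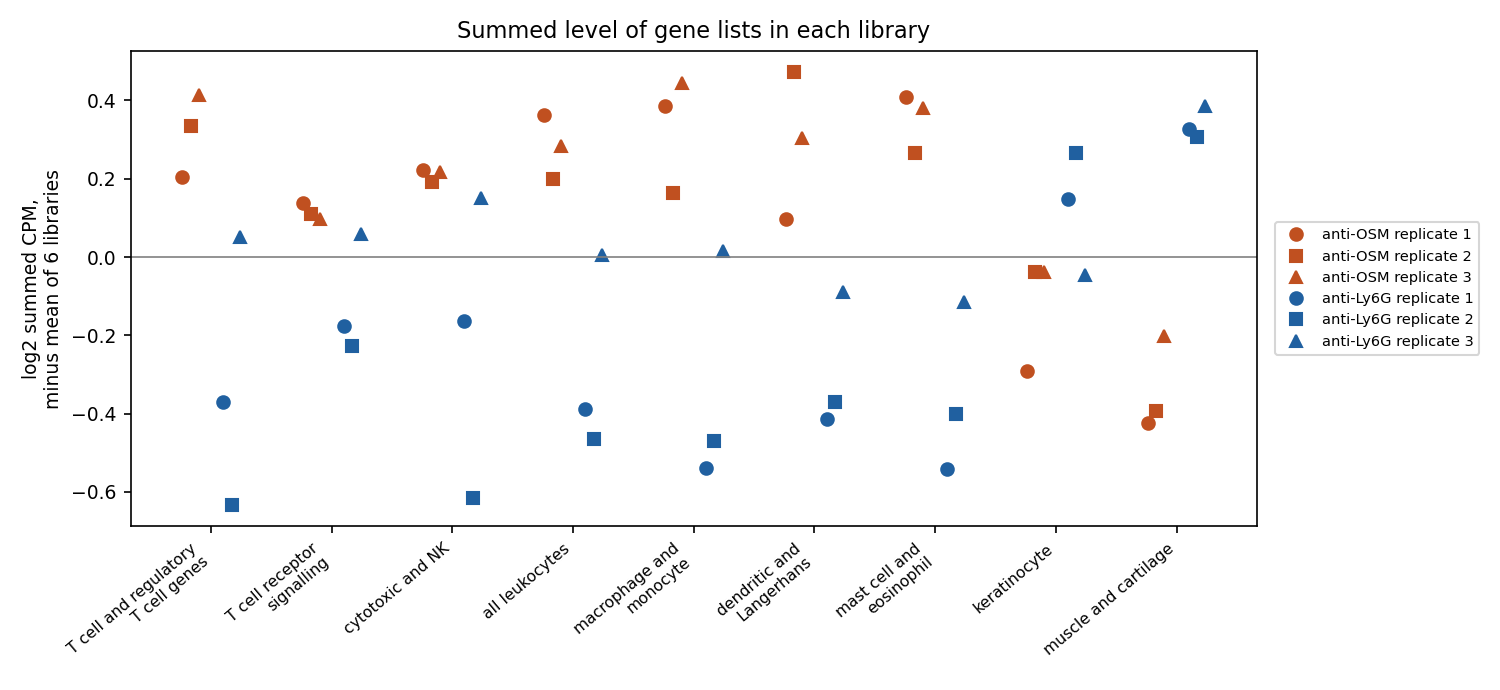
Log2 of the summed CPM of each gene list in each library, minus its mean over the 6 libraries, with anti-OSM in orange and anti-Ly6G in blue. In the all-leukocyte, macrophage, dendritic and mast cell lists anti-Ly6G replicate 3 lies between its own group and the anti-OSM libraries, and the muscle and cartilage list runs the opposite way.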

How the data were processed

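Per the file headers, each of the 6 libraries has 3 deposited columns: read counts, FPKM and TPM. The deposited counts are whole and not normalized. Neither the rule that gave reads to genes nor the use of strand is stated in the sources used here. TPM values, as deposited by the authors, were used for levels and as an alternative test. FPKM values, also deposited by the authors, were not used. The submitters' processing notes name Trimmomatic 0.38, HISAT2 2.1.0, SAMtools 1.9, edgeR 3.40.2 and StringTie 2.1.3b without giving roles, and list mm10 among the builds.

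Counts of all genes were fitted with edgeR 4.0.16 in R 4.3.3 (filterByExpr, TMM, robust quasi-likelihood, 2-sided F-tests, Benjamini-Hochberg over all tested genes, threshold 0.05), with no covariate. Standard errors were derived from each gene's F value and fold change. Within-library ratios added 0.5 to each count. The alternatives were DESeq2 1.42.0, other scalings, limma 3.58.1 (voom, and log2(TPM + 0.1) or log2(TPM + 1)), other filters, a non-robust fit, a replicate block and leaving out each library. Nothing in the labels says that replicates came from different mice, so the p-values reflect only variation among these samples, which may be technical. No library duplicated another (chi-square per gene of at least 26.2 within a group). A floor of 3 counts is 0.0468 to 0.0575 CPM.

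The 10 genes, the related lists and the naming rule were chosen with earlier results of these data known. Named were the 10 genes, up to 4 called genes with the smallest p of each related list, up to 2 of each list of other cells, and a fixed set of receptor, regulatory and subset genes. Lrrc32, Nt5e and Ikzf4 were named after their values were seen. Gene positions and promoters are from RefSeq, and strands and overlaps from GENCODE vM21, each on GRCm38. The values of 1 gene of the fixed set are not reported here.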

Additional observations from a re-analysis of the deposited data

How the results depend on the processing

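The number of T cell and regulatory T cell genes called higher was 2 under every other scaling, TPM and filter setting and the non-robust fit, and 3 in limma-voom. It was 7 in DESeq2 (8.31% of all genes higher), 5 with the replicate number as a block (6.65% of all genes higher) and 0 to 8 without each library, 8 being without anti-Ly6G replicate 3 and 0 without each of the other 5 (unadjusted 5 to 7 higher). Of all genes, 7.62% were higher without anti-Ly6G replicate 3 and 1.18% to 2.86% without each of the other 5. No setting called a member lower. Over all genes, 692 were higher with log2(TPM + 0.1) and 663 with log2(TPM + 1), against 1157; without each library 240 to 1545 were higher and 420 to 1447 lower. The log2 fold change of Cd8a ranged from -0.35 to 0.79 over these, and its sign turned when anti-OSM replicate 3 (-0.03), anti-Ly6G replicate 1 (-0.05) or anti-Ly6G replicate 2 (-0.35) was left out. The ratio differences to the CD3 genes, recomputed without each library after the data were seen, ranged from 0.53 to 0.91 for Cd4, 0.12 to 0.21 for Trac, 0.02 to 0.17 for Foxp3, 0.12 to 0.35 for Ctla4, 0.17 to 0.37 for Icos, -0.11 to 0.0315 for Il2ra and -0.56 to 0.36 for Cd8a, the last 2 turning sign without anti-Ly6G replicate 3. The causes were not tested. The replicate numbers share no stated source: same-numbered libraries correlated at 0.01, 0.04 and 0.12 in their deviations from group means, so the block is not a paired analysis. The anti-Ly6G libraries, at 47, 18 and 103 counts, spread widely for Cd8a.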

Other observations

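Variable segments of the T cell receptor, a group chosen after the values were seen, followed the constant regions in part. Summed over 112 listed alpha segments, 87 of them with a count, the level was 2.75, 2.99 and 3.12 CPM in the anti-OSM libraries. Against these stood 1.29, 1.02 and 1.55 CPM with anti-Ly6G, with no overlap. In counts the sums were low, at 146, 177 and 178 against 79, 60 and 100. The 22 beta segments summed to 4.67, 5.55 and 4.96 CPM against 2.88, 2.97 and 4.41, also with no overlap. The 7 gamma segments (4.29, 3.42 and 3.78 against 3.29, 2.41 and 3.80) overlapped between groups. No test was run on these sums. Every anti-OSM library lay above every anti-Ly6G library in CPM for 17.7% of single tested genes.

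The delta segments and the delta constant region were low in 1 library. Anti-OSM replicate 2 had 77 counts over the 5 delta segments, against 192 to 245 in the 5 other libraries, and 293 counts of Trdc, against 574 to 744. The same library was not low for the alpha or beta segments or for Trac (366 counts).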
